A study of Mus musculus with 12 samples.

Results

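The building of peroxisomes and their lipid metabolism were followed in stromal cells given an adipogenic medium and an androgen, through 30 genes, 12 peroxins that build the organelle and 18 genes of its lipid metabolism and of peroxide removal. The genes were taken by symbol from the deposited tables, whose coordinates are in GRCm38 and where 29 of the 30 have values among 12028 genes. The RNA level of Ehhadh, the bifunctional enzyme of peroxisomal beta-oxidation, is not analysed here. The libraries are poly(A)-selected RNA sequencing libraries of M2-10B4, an established mouse bone marrow stromal cell line of C57BL/6J X C3H/HeJ background, harvested on day 9 in 3 biological replicates of each of 4 groups. Control cells stayed untreated in regular medium, whose composition is not stated, and DHT cells received 10 nM of the androgen dihydrotestosterone in it. ADM cells were kept in adipocyte differentiation medium, which is phenol red-free RPMI with 10% charcoal-stripped serum, 2 µg/mL insulin, 1 µM of the glucocorticoid dexamethasone and 2 µM rosiglitazone, a drug that activates the fat cell transcription factor Pparg. ADM+DHT cells received the androgen at the same concentration in that medium. All groups come from the same cell line, so each result describes that line only, and ADM against control covers every difference between the media.

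Peroxisomes are single-membrane organelles that import their enzymes fully folded from the cytosol. Peroxins (Pex genes) carry out that import, insert the membrane proteins and divide the organelle, and the enzymes inside shorten very long and branched fatty acids, start the synthesis of ether lipids and break down the hydrogen peroxide that their oxidases release. Fat cells hold many small peroxisomes, and several peroxisomal genes are known targets of the nuclear receptors of the PPAR family.

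Values are FPKM, fragment numbers scaled to transcript length and library size, so levels of different genes can be compared per length. The tables hold no read counts, so library depth is unknown. Library sums of FPKM ranged from 240651 to 262947, and Pearson's r between libraries of a group, across genes, which are not independent replicates, was 0.990 to 0.991. Transcripts of the 13 mitochondrially encoded genes took 9.57% ± 0.34 (SD, n = 3 here and below) of the FPKM sum in control and 10.1% ± 0.45 in DHT, against 16.8% ± 0.42 in ADM and 13.6% ± 0.31 in ADM+DHT, so shares left for other genes also differed between groups. As a check of the labelled cell type, 7 of 8 stromal markers had values and summed to 2847 ± 40.2 FPKM in control and 3003 ± 58.3 in DHT, against 1722 ± 35.1 in ADM and 2408 ± 20.2 in ADM+DHT. All 8 adipocyte markers had values, with sums between 17.1 and 31.6 FPKM in control, 20.7 and 22.1 in DHT, 2013 and 2113 in ADM, and 675.5 and 750.0 in ADM+DHT. Of the macrophage and haematopoietic markers, 4 of 8 had values and the 3 with a value in every library summed to 7.13 to 11.8 FPKM. Of the endothelial and the skeletal muscle markers, 1 of 6 and 3 of 6 had values, none above 1.79 FPKM, and other markers of these lists are not analysed here.

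The promoters of 4 members are shown first because these members had the largest rises in ADM among those whose RefSeq start lies within 1000 bases of the start in the deposited tables. The sequences are the 250 bases before the start in RefSeq's GRCm38.p6 annotation, each 5′ to 3′ on the strand of its gene, with capitals where a searched motif matched on either strand. Pex16 (chr2:92374426-92374675, plus strand) encodes the membrane receptor that brings in other peroxisomal membrane proteins, and Cat (chr2:103485154-103485403, minus strand) encodes catalase. Ech1 (chr7:28825088-28825337, plus strand) encodes an auxiliary enzyme of beta-oxidation, and Pex13 (chr11:23665884-23666133, minus strand) a part of the docking complex of import.
Pex16: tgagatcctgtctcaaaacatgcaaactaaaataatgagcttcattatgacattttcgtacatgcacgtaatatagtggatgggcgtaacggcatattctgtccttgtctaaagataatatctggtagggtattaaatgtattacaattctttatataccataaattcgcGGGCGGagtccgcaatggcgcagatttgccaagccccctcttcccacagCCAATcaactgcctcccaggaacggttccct
Cat: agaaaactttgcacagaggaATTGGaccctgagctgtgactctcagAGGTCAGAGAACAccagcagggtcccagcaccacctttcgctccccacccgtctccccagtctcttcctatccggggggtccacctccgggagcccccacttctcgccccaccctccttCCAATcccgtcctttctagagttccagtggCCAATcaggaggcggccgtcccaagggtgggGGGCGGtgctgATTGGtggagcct
Ech1: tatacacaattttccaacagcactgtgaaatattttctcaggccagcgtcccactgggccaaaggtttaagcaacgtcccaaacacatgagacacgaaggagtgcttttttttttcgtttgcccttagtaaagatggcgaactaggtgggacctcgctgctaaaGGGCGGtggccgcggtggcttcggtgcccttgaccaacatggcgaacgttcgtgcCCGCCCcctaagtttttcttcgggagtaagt
Pex13: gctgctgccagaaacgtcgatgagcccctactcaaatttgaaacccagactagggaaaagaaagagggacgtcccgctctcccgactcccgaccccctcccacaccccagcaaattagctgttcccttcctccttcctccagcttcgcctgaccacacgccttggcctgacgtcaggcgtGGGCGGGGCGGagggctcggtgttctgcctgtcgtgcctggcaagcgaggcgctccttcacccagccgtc

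Of the 30 members, 26, Ehhadh among them, have a RefSeq promoter entry, and windows from 250 bases before to 50 after the start were searched on both strands beside all 32851 entries of the table. The direct repeat of AGGTCA with 1 free base N between the copies, the consensus element of PPAR with its partner RXR, matched exactly in 0 of 26 members and in 0.0396% of all entries. With up to 2 mismatches outside N it matched in 1 of 26, Cat, as AGGTCAGAGAACA at 204 bases before the start, against 3.86% of all entries. AGAACA followed by NNN and TGTTCT, the inverted repeat bound by receptors of steroid hormones, matched in 0 of 26 members exactly or with up to 2 mismatches, against 0.00913% and 1.84% of all entries. The 2 short motifs that follow, common in promoters, were added after the first results were seen. GGGCGG, the core of the GC box, was in 21 of 26 members against 35.7% of all entries, and CCAAT was in 12 of 26 against 37.4%. In Pex13 the marked run holds a pair of overlapping GGGCGG matches, and no matches of different motifs overlap in the 4 promoters shown. The members' windows had a median GC content of 58.2% and a median of 19 CpG, against 52.7% and 7 over all entries. A match is a description of these letters and not evidence of binding, and no match says only that the letters are not in this window.

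The question of the first comparison is what adipogenic medium changed. Peroxisomal genes were broadly higher in ADM than in control. Of 29 members tested, 23 rose and 2 fell with limma at an adjusted p under 0.05, while 28.3% of all 11074 genes tested rose and 33.3% fell. The rises included both docking peroxins, all 3 genes of membrane assembly and the fatty acid transporters Abcd2 and Abcd3. Phyh and Hacl1 of alpha-oxidation, the racemase gene Amacr and catalase also rose. The falls were the ligase subunit Pex2 and the reductase Pecr. Pex7, Pex26, Agps and Far1 did not pass the test. The median log2 difference of FPKM with 1 added was 0.75 over the members and -0.03 over all genes. Abcd2 passed the filter of 1 FPKM in a compared group only through ADM, so its tests against ADM could only come out in that direction.

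The second comparison asks what the androgen changed within adipogenic medium. Of the 29 members, 18 were lower in ADM+DHT than in ADM and 2, Pex2 and Amacr, were higher, while 16.3% of all 10823 genes tested fell and 17.2% rose. The median difference was -0.38 over the members and 0.01 over all genes. The peroxins that fell numbered 10 of 12, and the lipid and peroxide genes that fell numbered 8 of 17. In regular medium, of 28 tested, Acaa1a, Phyh and Amacr rose with DHT and Pecr fell, against 12.7% and 14.1% of all 10820 genes. With all 12 libraries in the fit 5 members rose and 2 fell. In the fit of the pair 0 of 12 peroxins passed the test there in limma's fit. At an unadjusted p under 0.05, 3 of the 12 passed, and with all 12 libraries Pex2 passed (adjusted p = 0.0172). Whether the androgen difference itself depended on the medium was tested as an interaction over all 12 libraries. It passed for 18 of 29 members, 17 with a lower and 1 with a higher difference in adipogenic medium, against 12.9% and 12.5% of all 11152 genes. Abcd2, among the 17, entered this test only through ADM, which favoured a lower difference in advance. ADM+DHT against DHT, the same change of medium with the androgen present, gave 19 higher and 2 lower of 28 members, against 23.3% and 26.7% of all 10942 genes, with a median difference of 0.27. These comparisons share groups, so their counts are not independent of each other.

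**Figure D1:**
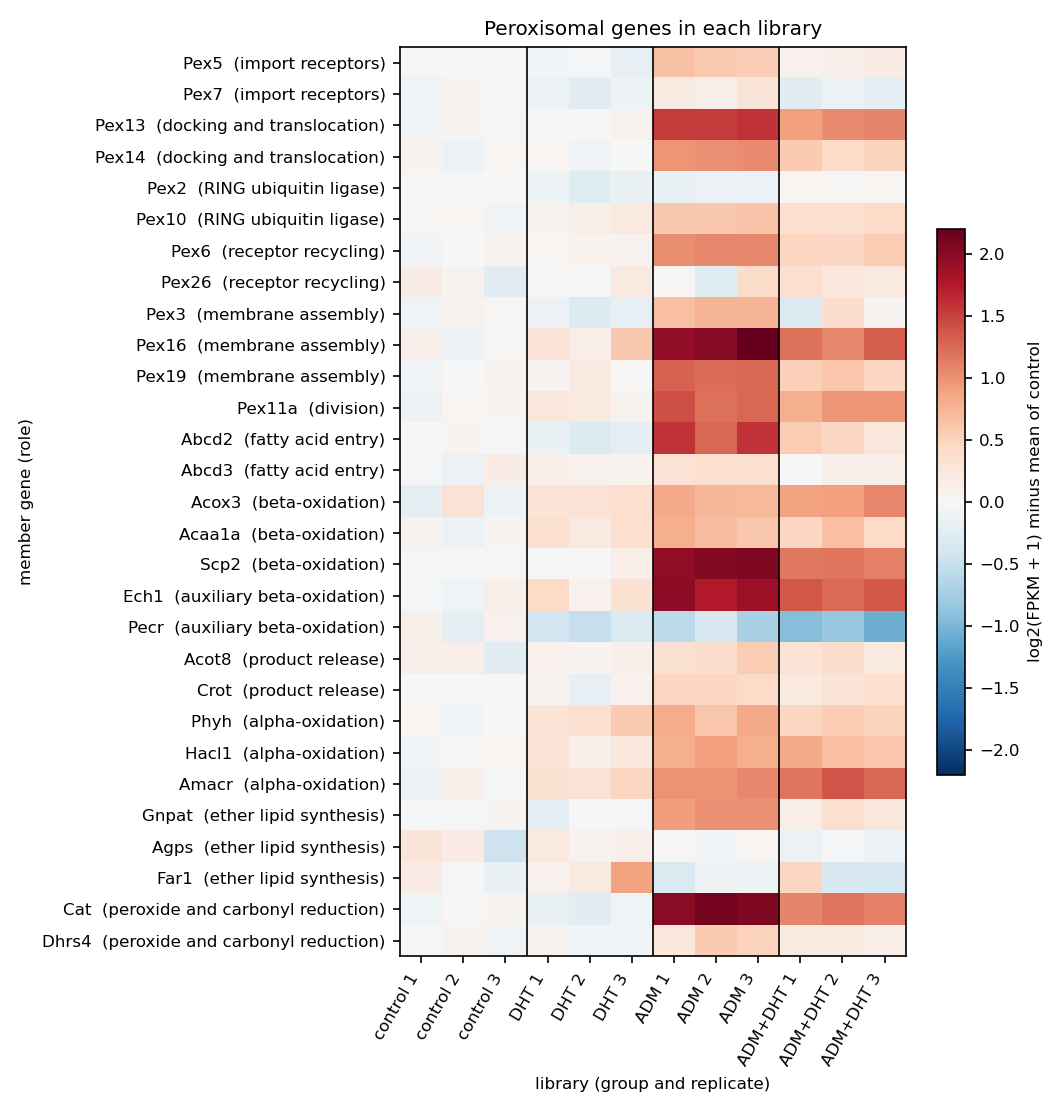
Level of each of the 29 members in each of the 12 libraries (columns, by group), drawn as the difference in log2(FPKM + 1) from the member's mean in control, with members ordered by role. Red is above and blue below control. The ADM columns are the highest for most members, in 15 of 29 every ADM+DHT column lies between ADM and regular medium, and Pecr is below its control mean in the other groups.

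Markers of fat cells moved with the members. All 8 adipocyte markers rose in ADM, against 28.3% of all genes, and fell in ADM+DHT against ADM, against 16.3%. Of 7 stromal markers 3 rose and 4 fell in ADM, against 28.3% and 33.3%, and 6 rose in ADM+DHT against ADM, against 17.2%. The adipocyte marker Cebpa was uneven in ADM+DHT, at 8.39, 36.0 and 8.31 FPKM, and did not stand clear of DHT. Of the adipocyte markers, Adipoq, Plin1, Cidec and Cd36, 4 of 8, passed the filter against control only through ADM, so their difference there could only be positive. The 12 peroxins summed to 63.1 ± 0.81 FPKM in control and 62.7 ± 0.87 in DHT, against 133 ± 3.34 in ADM and 90.4 ± 2.85 in ADM+DHT. The 17 lipid and peroxide genes summed to 182 ± 3.05, 193 ± 11.95, 486 ± 7.60 and 317 ± 5.86 FPKM in the same order. In ADM most of that sum was Cat, Scp2 and Ech1, at 159, 99.7 and 73.0 FPKM. The part that the share of fat cells has in these values was not tested, and in bulk samples fewer cells of a type and less RNA per cell cannot be told apart. In 15 of 29 members every ADM library lay above every ADM+DHT library, which in turn lay above every library in regular medium, an order held by 7.15% of all genes tested. The reverse order was held by 0 of 29 members and 5.26% of genes.

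Import of matrix proteins starts with the receptors Pex5, which reads the signal at the end of most matrix enzymes, and Pex7, which reads a signal near the start of a few. Pex5 stood at 9.05, 8.74 and 8.72 FPKM in the control libraries, 8.48, 8.51 and 7.67 in DHT, 14.3, 13.6 and 13.3 in ADM and 9.45, 9.65 and 10.0 in ADM+DHT. The ADM libraries stood above all others, and ADM+DHT stayed above both groups in regular medium. The Pex5 difference was 0.58 ± 0.052 in ADM against control (SE, n = 3 per group throughout) and -0.46 ± 0.051 in ADM+DHT against ADM, with an interaction of -0.37 ± 0.073 (adjusted p = 0.00317). Its rise in ADM+DHT against DHT, 0.22 ± 0.059, was not called without DHT replicate 3 or ADM+DHT replicate 3 (adjusted p 0.0529 and 0.0588) or with a replicate block (0.0534). Pex7 averaged 2.97 ± 0.205 FPKM in control and 2.56 ± 0.168 in DHT, against 3.55 ± 0.258 in ADM and 2.47 ± 0.150 in ADM+DHT, as means ± SD. It fell in ADM+DHT against ADM by a difference of -0.39 ± 0.075, and its difference of 0.20 ± 0.078 in ADM against control did not pass (adjusted p = 0.0588).

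The docking complex at the membrane was among the clearest groups. The 3 control libraries held Pex13 (ENSMUSG00000020283.5, chromosome 11, 23646479 to 23665959) at 5.61, 6.24 and 6.05 FPKM, with 6.02, 5.95 and 6.36 in DHT, 19.3, 19.2 and 19.9 in ADM and 12.1, 13.4 and 13.7 in ADM+DHT. The groups separated as ADM, then ADM+DHT, then both groups in regular medium, which overlapped each other. Pex14 measured 5.78, 4.91 and 5.63 FPKM in control, 5.60, 5.11 and 5.38 in DHT, 11.6, 11.8 and 12.3 in ADM and 8.55, 7.64 and 7.98 in ADM+DHT. Pex14, the first docking site of loaded Pex5, followed the same order. Pex13 differed by 1.55 ± 0.056 and Pex14 by 1.00 ± 0.070 in ADM against control, and by -0.54 ± 0.057 and -0.51 ± 0.058 in ADM+DHT against ADM. Their interactions were -0.57 ± 0.081 and -0.49 ± 0.092 (adjusted p = 0.000308 and 0.00208). In GENCODE M21, 28.3% of the exon bases of Pex14 overlap the antisense gene Gm17029. The kit marks strand, but whether the authors' counting used it is not given in the sources used here, so reads of overlapping genes may be shared.

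After delivery, the receptor is tagged by a ligase of RING subunits and pulled out by ATPases, and here the members did not move together. For Pex2, FPKM was 9.93, 9.62 and 9.69 in control, 8.92, 7.96 and 8.71 in DHT, 8.68, 8.80 and 8.82 in ADM and 10.0, 9.92 and 10.0 in ADM+DHT. Pex2, a subunit of that ligase, was lowest in DHT and ADM and highest in ADM+DHT and control, with small gaps. Its differences were -0.14 ± 0.050 in ADM against control (adjusted p = 0.0448) and 0.17 ± 0.046 in ADM+DHT against ADM (0.0284), and both calls ended when any 1 of the 6 libraries was left out, with adjusted p from 0.0692 to 0.126 and from 0.0549 to 0.0786. With a replicate block they had an adjusted p of 0.0903 and 0.0856, and the first also ended with FPKM rescaled to genes that are not mitochondrially encoded (0.106). The interaction of Pex2 was 0.34 ± 0.068 (adjusted p = 0.00294), the 1 interaction with a positive sign among those that passed.
Pex10 stood at 1.06, 1.07 and 0.933 FPKM in the control libraries, 1.13, 1.21 and 1.35 in DHT, 2.04, 2.06 and 2.11 in ADM and 1.60, 1.58 and 1.69 in ADM+DHT. Pex10, another subunit, rose by 0.60 ± 0.071 in ADM. Its difference of -0.23 ± 0.067 in ADM+DHT against ADM was not called when any 1 of the 6 libraries was left out (adjusted p 0.0655 to 0.105), with quantile normalization (0.0570) or with a replicate block (0.1002). The Pex10 interaction was -0.37 ± 0.089 (adjusted p = 0.00978).
The 3 control libraries held Pex6 at 5.78, 5.99 and 6.44 FPKM, with 6.27, 6.49 and 6.44 in DHT, 13.3, 13.8 and 13.7 in ADM and 8.77, 8.66 and 9.44 in ADM+DHT. The Pex6 libraries of ADM and of ADM+DHT each stood apart from all others. Pex6, an ATPase that extracts the receptor, differed by 1.05 ± 0.058 in ADM, -0.55 ± 0.052 in ADM+DHT against ADM and -0.62 ± 0.073 in the interaction (adjusted p = 8.21e-05). Pex26, the anchor of these ATPases, averaged 1.432 ± 0.345 FPKM in control and 1.502 ± 0.232 in DHT, against 1.56 ± 0.598 in ADM and 1.92 ± 0.162 in ADM+DHT and passed no test, with ADM libraries spread from 1.02 to 2.201 FPKM.

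Membrane assembly held Pex16, the peroxin with the largest differences. Pex16 (ENSMUSG00000027222.14, chromosome 2, 92374676 to 92381217) measured 3.07, 2.41 and 2.80 FPKM in control, 3.55, 3.17 and 4.66 in DHT, 13.5, 14 and 17.0 in ADM and 7.62, 6.83 and 8.30 in ADM+DHT. Both groups in adipogenic medium were above all libraries in regular medium. Pex16 rose by 2.07 ± 0.105 in ADM, with the added 1 the largest difference of the 29 members. As a ratio of FPKM means, Abcd2 rose more, by 8.04 against 5.37 for Pex16. The ADM+DHT mean of Pex16 was 0.511 of its ADM mean in FPKM, a log2 difference of -0.88 ± 0.101. Its interaction, -1.22 ± 0.174 (adjusted p = 0.000325), was also the largest in size among the members.
For Pex19 (ENSMUSG00000003464.13, chromosome 1, 172126755 to 172136493), FPKM was 9.60, 9.92 and 10.5 in control, 10.4, 11.6 and 9.95 in DHT, 26.0, 24.9 and 25.4 in ADM and 14.7, 15.7 and 14.04 in ADM+DHT. Pex19, the chaperone that carries new membrane proteins to the organelle, showed no overlap of ADM or ADM+DHT with any other group. It was the most abundant peroxin in ADM per length, and it differed by 1.27 ± 0.050 in ADM, -0.74 ± 0.052 in ADM+DHT against ADM and -0.82 ± 0.085 in the interaction (adjusted p = 2.79e-05).
Pex3 stood at 6.07, 6.98 and 6.75 FPKM in the control libraries, 5.92, 5.17 and 5.69 in DHT, 11.04, 11.7 and 11.8 in ADM and 5.12, 8.97 and 6.89 in ADM+DHT. Pex3, the membrane anchor on which Pex19 docks, was spread in ADM+DHT, where the lowest library lay below all other libraries. It rose by 0.72 ± 0.066 in ADM and fell by a difference of -0.67 ± 0.161 in ADM+DHT against ADM (adjusted p = 0.0167), a call that ended without ADM replicate 2 or 3 (adjusted p 0.0506 and 0.0525). The interaction of Pex3, -0.47 ± 0.193, did not pass (adjusted p = 0.1) but did without ADM+DHT replicate 2 (0.00724).
The 3 control libraries held Pex11a (ENSMUSG00000030545.9, chromosome 7, 79735957 to 79743131) at 2.05, 2.38 and 2.45 FPKM, with 2.90, 2.79 and 2.46 in DHT, 7.82, 6.58 and 6.89 in ADM and 4.71, 5.42 and 5.45 in ADM+DHT. Pex11a elongates the membrane before division and is known as an inducible peroxin. Its libraries fell into 4 levels without overlap between groups, DHT lying just above control. It differed by 1.30 ± 0.086 in ADM, -0.38 ± 0.083 in ADM+DHT against ADM and -0.56 ± 0.118 in the interaction (adjusted p = 0.0045).

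**Figure D2:**
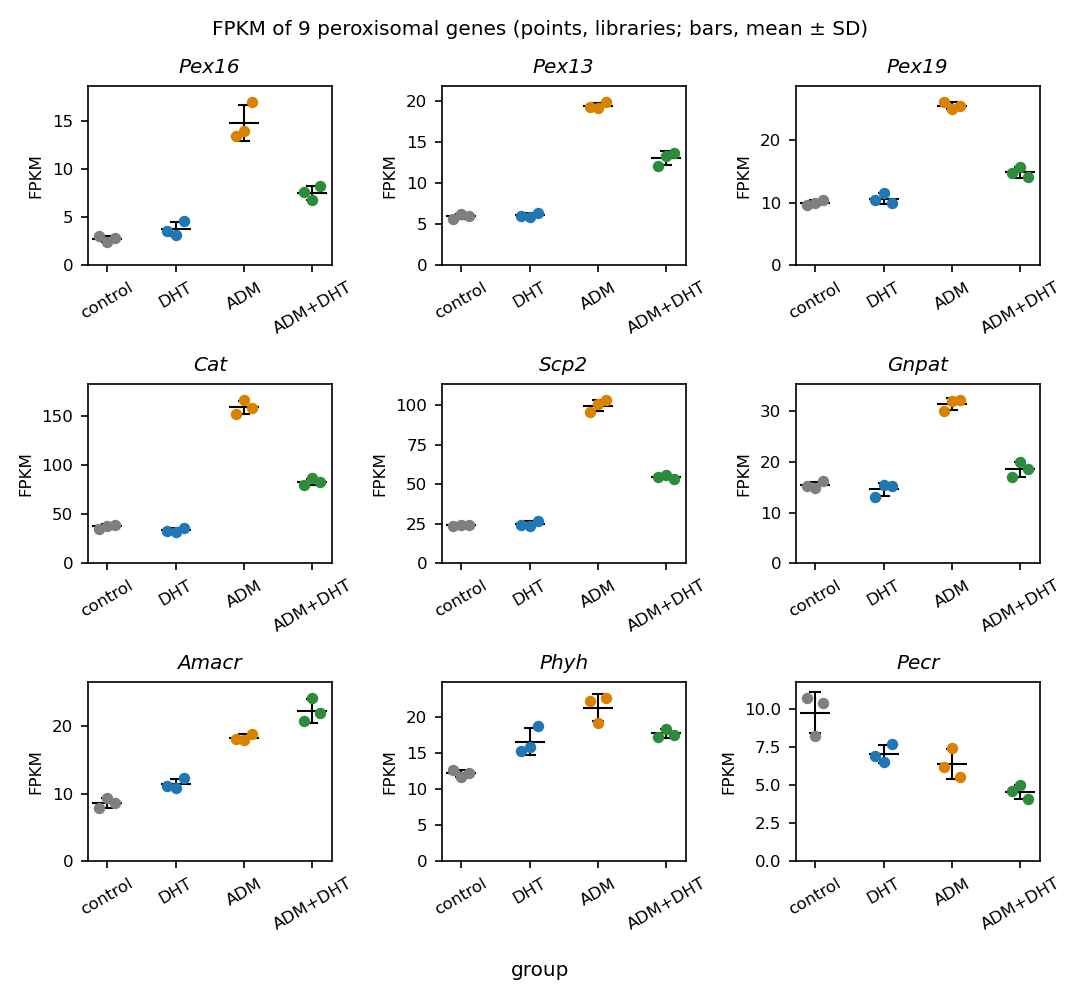
FPKM in each library by group for 9 members (points), with bars for the mean ± SD of each group and each axis starting at 0 FPKM. In the Cat panel the ADM libraries stand at 152 to 166 FPKM and the ADM+DHT libraries at 79.7 to 86.3 FPKM, above both groups in regular medium.

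Fatty acids enter through ABC transporters of the membrane. Abcd2 (ENSMUSG00000055782.8, chromosome 15, 91145884 to 91191807) measured 0.332, 0.403 and 0.305 FPKM in control, 0.221, 0.0977 and 0.180 in DHT, 3.07, 2.22 and 3.07 in ADM and 0.978, 0.840 and 0.601 in ADM+DHT. Abcd2, a transporter of very long-chain acyl-CoA, was below 1 FPKM in every library but those of ADM. Its difference was 1.48 ± 0.110 in ADM and -1.07 ± 0.127 in ADM+DHT against ADM, understated at such low levels by the added 1, and it was not tested in DHT against control. It entered the interaction too only through ADM, and the interaction, -0.86 ± 0.151 (adjusted p = 0.00141), was not called with 0.1 in place of the added 1 (adjusted p = 0.0688).
For Abcd3, FPKM was 14.95, 13.8 and 17.2 in control, 16.9, 16.2 and 16.1 in DHT, 19.3, 20.1 and 19.8 in ADM and 15.1, 16.7 and 16.8 in ADM+DHT. Abcd3, the abundant transporter of branched and other long chains, was above the other groups in ADM, and the other 3 groups overlapped. It rose by 0.35 ± 0.077 in ADM, fell by a difference of -0.27 ± 0.054 in ADM+DHT against ADM, and had an interaction of -0.37 ± 0.097 (adjusted p = 0.0164).

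In beta-oxidation itself, Scp2 and Ech1 carried the large differences. Scp2 (ENSMUSG00000028603.15, chromosome 4, 108043839 to 108144998) stood at 23.5, 24.3 and 24.4 FPKM in the control libraries, 24.3, 23.9 and 26.8 in DHT, 95.7, 100.3 and 103 in ADM and 54.7, 56.0 and 53.0 in ADM+DHT. Scp2, which encodes both a thiolase of branched chains and a sterol carrier protein, kept every ADM library above every ADM+DHT library, and both above regular medium. It rose by 2.00 ± 0.043 in ADM and differed by -0.86 ± 0.040 in ADM+DHT against ADM, with the interaction at -0.91 ± 0.066 (adjusted p = 2.04e-06).
The 3 control libraries held Ech1 (ENSMUSG00000053898.12, chromosome 7, 28825217 to 28832247) at 19.0, 17.9 and 21.1 FPKM, with 26.6, 20.8 and 24.6 in DHT, 78.6, 66.9 and 73.5 in ADM and 51.2, 47.3 and 50.8 in ADM+DHT. Ech1 encodes a dienoyl-CoA isomerase found in peroxisomes and mitochondria, and its groups in adipogenic medium stood apart while DHT and control overlapped. It differed by 1.86 ± 0.079 in ADM, -0.54 ± 0.064 in ADM+DHT against ADM and -0.83 ± 0.126 in the interaction (adjusted p = 0.000495).
Acaa1a measured 2.24, 1.80 and 2.23 FPKM in control, 2.94, 2.52 and 3.01 in DHT, 4.39, 3.95 and 3.68 in ADM and 3.23, 3.89 and 3.19 in ADM+DHT. Acaa1a, the thiolase of straight chains, lay lowest in control, and its ADM and ADM+DHT libraries overlapped. It rose by 0.70 ± 0.092 in ADM, its difference of -0.18 ± 0.091 in ADM+DHT against ADM did not pass (adjusted p = 0.184), and its interaction was -0.48 ± 0.130 (adjusted p = 0.0178). In regular medium it rose by 0.31 ± 0.092 with DHT (adjusted p = 0.0461), a call that ended when any 1 library other than DHT replicate 2 was left out (adjusted p 0.0722 to 0.129), with quantile normalization (0.0661) and with centring on the median gene (0.0592). The near-identical copy Acaa1b is listed separately, at 1.42 ± 0.190 FPKM in ADM, and how reads were split between the copies is not given, so both are uncertain.
Acox3, an oxidase of branched chains, averaged 1.65 ± 0.547 FPKM in control and 2.29 ± 0.0826 in DHT, against 3.43 ± 0.190 in ADM and 4.05 ± 0.330 in ADM+DHT. It rose in ADM by 0.76 ± 0.141, and it was not lower in ADM+DHT, where the difference of 0.19 ± 0.075 against ADM did not pass (adjusted p = 0.0969). Pecr (ENSMUSG00000026189.13, chromosome 1, 72259167 to 72284314), a reductase of trans-2-enoyl-CoA, was highest in control at 9.75 ± 1.36 FPKM, lower in DHT at 7.05 ± 0.595 and ADM at 6.38 ± 0.965, and lowest at 4.56 ± 0.474 in ADM+DHT. It fell in all 4 pairs, by a difference of -0.54 ± 0.125 in ADM against control, -0.40 ± 0.111 in ADM+DHT against ADM, -0.41 ± 0.106 in DHT against control and -0.53 ± 0.088 in ADM+DHT against DHT. The second of these calls ended without ADM replicate 1 or 2 or ADM+DHT replicate 1 or 3 (adjusted p 0.0655 to 0.0874), and the third without control replicate 1 or 3 or DHT replicate 1 or 2 (0.0761 to 0.0844). Its interaction, 0.01 ± 0.164, did not pass (adjusted p = 0.975).

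Products leave as free acids or carnitine esters. The thioesterase gene Acot8 rose by 0.43 ± 0.124 in ADM, from 2.31 ± 0.482 to 3.44 ± 0.367 FPKM, a call that ended without ADM replicate 3 (adjusted p = 0.0615). Crot, which makes octanoylcarnitine, rose by 0.45 ± 0.047 from 10.2 ± 0.114 to 14.3 ± 0.297 FPKM. Neither passed in ADM+DHT against ADM, where Acot8 averaged 3.05 ± 0.232 and Crot 12.7 ± 0.797 FPKM in ADM+DHT, although Crot passed without ADM+DHT replicate 3 (adjusted p = 0.0342).

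Alpha-oxidation removes a carbon from methyl-branched acids such as phytanic acid, and Amacr, listed with it here, acts on branched acids bound for beta-oxidation. Phyh, Amacr and Acaa1a were the 3 of 28 members that rose with DHT in regular medium, near the 12.7% of all genes that rose. Hacl1 did not pass there in limma's test (adjusted p = 0.0801). For Phyh (ENSMUSG00000026664.7, chromosome 2, 4919019 to 4938730), FPKM was 12.7, 11.7 and 12.3 in control, 15.2, 15.8 and 18.8 in DHT, 22.2, 19.2 and 22.6 in ADM and 17.3, 18.4 and 17.6 in ADM+DHT. Phyh, the hydroxylase that begins the pathway, was lowest in all control libraries, and the DHT and ADM+DHT libraries overlapped. It rose by 0.75 ± 0.072 in ADM and by 0.41 ± 0.081 with DHT in regular medium (adjusted p = 0.00986). In adipogenic medium the DHT difference was -0.25 ± 0.068 (adjusted p = 0.0279), a call that ended without ADM replicate 1 or 3 or ADM+DHT replicate 1 or 3 (adjusted p 0.0749 to 0.0835) and with a replicate block (0.0627). The interaction of Phyh, where the androgen difference had opposite signs in the 2 media, was -0.66 ± 0.111 (adjusted p = 0.00106).
Amacr (ENSMUSG00000022244.7, chromosome 15, 10981756 to 10996626) stood at 7.80, 9.32 and 8.60 FPKM in the control libraries, 11.1, 10.9 and 12.3 in DHT, 18.0, 17.9 and 18.8 in ADM and 20.6, 24.0 and 21.8 in ADM+DHT. Amacr, the racemase that prepares branched acids for beta-oxidation, rose from group to group with no overlap, in the order control, DHT, ADM and ADM+DHT. Its differences were 1.01 ± 0.069 in ADM against control, 0.37 ± 0.077 in DHT against control (adjusted p = 0.0116) and 0.27 ± 0.062 in ADM+DHT against ADM (adjusted p = 0.0148), and the interaction of -0.11 ± 0.102 did not pass (adjusted p = 0.482).
The 3 control libraries held Hacl1 at 1.75, 1.91 and 1.95 FPKM, with 2.48, 2.12 and 2.41 in DHT, 3.99, 4.36 and 4.00 in ADM and 4.09, 3.54 and 3.37 in ADM+DHT. Hacl1, the lyase of the pathway, was above regular medium in both adipogenic groups, which overlapped. It rose by 0.83 ± 0.071 in ADM, and its difference of -0.13 ± 0.080 in ADM+DHT against ADM did not pass (adjusted p = 0.242). The interaction, -0.35 ± 0.106 (adjusted p = 0.0306), was not called when control replicate 1, DHT replicate 1 or 3, ADM replicate 2 or ADM+DHT replicate 2 or 3 was left out (adjusted p 0.0658 to 0.0725) or with a replicate block (0.0529). Of the exon bases of Hacl1, 31.1% are shared with Gm49387 on the same strand, so its level is uncertain.

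Ether lipid synthesis begins with Gnpat and Agps in the peroxisome and with the fatty alcohol made by Far1, and the 3 genes did not move alike. Gnpat (ENSMUSG00000031985.9, chromosome 8, 124863033 to 124890057) measured 15.2, 14.96 and 16.2 FPKM in control, 13.1, 15.5 and 15.2 in DHT, 30.1, 32.0 and 32.2 in ADM and 17.1, 20.03 and 18.6 in ADM+DHT. The ADM libraries of Gnpat were far above the rest, and ADM+DHT lay just above regular medium. It rose by 0.98 ± 0.052 in ADM, fell by a difference of -0.73 ± 0.063 in ADM+DHT against ADM, and had an interaction of -0.65 ± 0.10 (adjusted p = 0.000531). Agps averaged 4.49 ± 1.36 FPKM in control and 4.91 ± 0.321 in DHT, against 4.38 ± 0.228 in ADM and 4.01 ± 0.152 in ADM+DHT, with control replicate 3 at 2.93 FPKM, below its fellows. Its difference in ADM against control was 0.00 ± 0.180 (adjusted p = 0.988). It fell in ADM+DHT against DHT by a difference of -0.24 ± 0.067, a call that ended without DHT replicate 1 or ADM+DHT replicate 1 or 3 (adjusted p 0.0628 to 0.0739), with all 12 libraries in the fit (0.207) or with a replicate block (0.0612). Far1, whose enzyme is known to limit the rate of ether lipid synthesis, passed no test and was uneven between replicates, at 6.11, 6.57 and 11.2 FPKM in DHT and 8.23, 4.26 and 4.12 in ADM+DHT.

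Catalase, which breaks down hydrogen peroxide, was the most abundant member per length in every group. For Cat (ENSMUSG00000027187.10, chromosome 2, 103453849 to 103485160), FPKM was 35.1, 38.3 and 39.3 in control, 33.2, 31.8 and 35.7 in DHT, 152, 166 and 158 in ADM and 79.7, 86.3 and 82.3 in ADM+DHT. Every ADM library was above every ADM+DHT library, and the lowest of those was above the highest in regular medium, where DHT and control overlapped. The difference was 2.05 ± 0.055 in ADM against control and -0.93 ± 0.045 in ADM+DHT against ADM, and the interaction was -0.77 ± 0.079 (adjusted p = 2.4e-05). In ADM+DHT against DHT it was 1.28 ± 0.052, the largest of the members in that pair. Dhrs4, a reductase of retinal and other carbonyls, averaged 11.3 ± 0.641 FPKM in control and 11.1 ± 0.668 in DHT, against 15.7 ± 2.05 in ADM and 12.9 ± 0.358 in ADM+DHT. It rose by 0.43 ± 0.096 in ADM, and its difference of -0.25 ± 0.091 in ADM+DHT against ADM did not pass (adjusted p = 0.0723), though it did without ADM replicate 1 (0.00497).

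**Figure D3:**
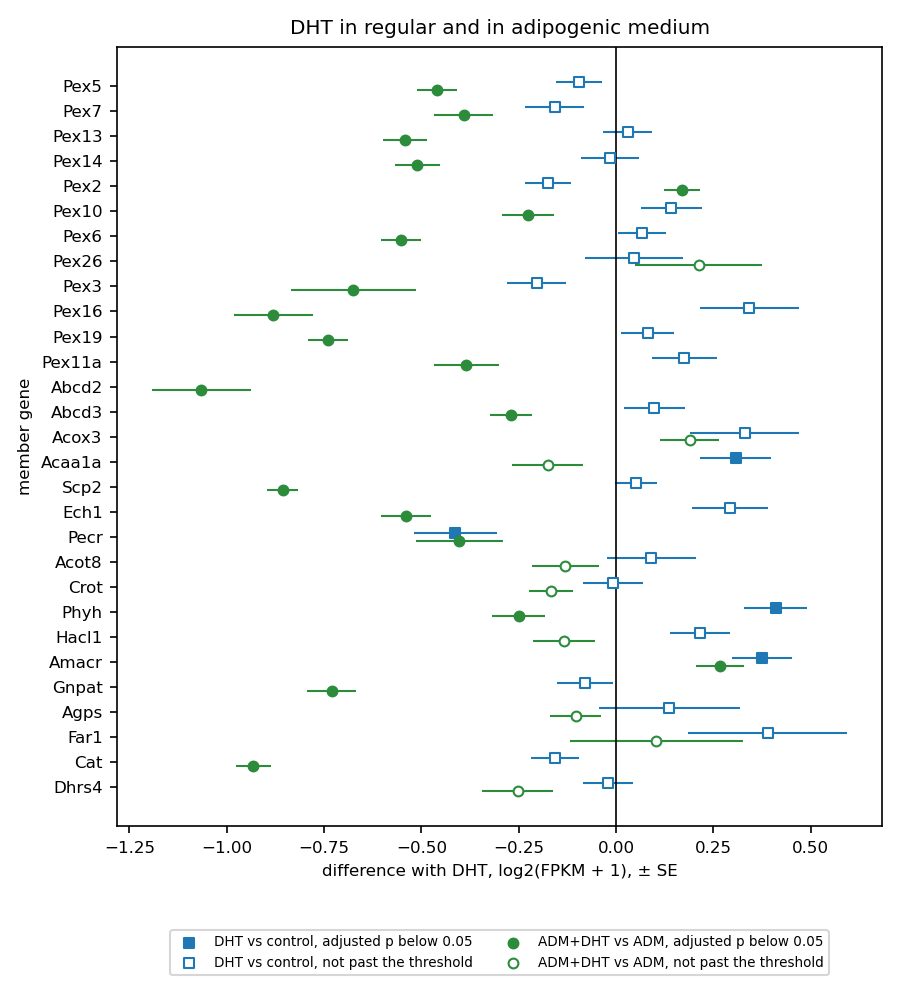
Log2 difference with DHT for each member in regular medium (DHT minus control) and in adipogenic medium (ADM+DHT minus ADM), with bars of 1 SE. The differences in regular medium lie between -0.41 and 0.41, and in adipogenic medium 18 members fell and 2 rose at an adjusted p under 0.05.

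The 23 members that rose in ADM kept different parts of that rise when the androgen was present. As the share of the ADM rise over control still present in ADM+DHT, from FPKM means, the median was 40.5%, and 12 of the 23 kept under 50%. Pex5 kept 17.8%, Abcd2 18.8%, Gnpat 19.5% and Abcd3 20.1%. The Abcd3 share was 3.69% without control replicate 2 and 34.0% without control replicate 3. Against DHT, which these shares do not use, Abcd3 in ADM+DHT differed by -0.02 ± 0.054 and did not pass limma's test (adjusted p = 0.799). The Pex3 share, 7.96%, rested on spread ADM+DHT libraries and was -12.1% without replicate 2 and 27.0% without replicate 1 of that group. Pex19 kept 31.4%, Cat 37.3%, Pex16 39.9% and Scp2 40.4%, and Ech1 and Pex11a kept 56.8% and 60.5%. The oxidase gene Acox3 and the racemase gene Amacr stood at 135% and 141%, above their ADM level. These shares are descriptions without a test of their order. In ADM+DHT against DHT 9 of 12 peroxins and 10 of 16 lipid and peroxide genes were higher, against 23.3% of all genes. Lower in that pair were 0 of the 12 and 2 of the 16, against 26.7%. In that pair, besides Pex5, the calls of Pex2, Pex10, Acot8, Crot and Dhrs4 also ended without some single libraries. The adjusted p without DHT replicate 2 or ADM+DHT replicate 1 or 3 was 0.0513 to 0.0542 for Pex2, and without ADM+DHT replicate 2 or 3 it was 0.0568 and 0.0728 for Crot. For Pex10 it was 0.0602 to 0.0959 with any library but DHT replicate 3 left out, for Acot8 0.0772 to 0.129 with any but ADM+DHT replicate 3 left out, and for Dhrs4 0.0631 to 0.0663 without DHT replicate 2 or 3 or ADM+DHT replicate 1 or 2. With a replicate block it was 0.0655 for Pex10 and 0.0993 for Acot8, and with all 12 libraries in the fit 0.117 for Acot8 and 0.0618 for Dhrs4.

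Other peroxisomal and ether lipid genes were read from lists, 51 tested genes together. The lists were peroxins and division factors, fatty acid and bile acid enzymes, other matrix and membrane proteins, and ether lipid genes. They also hold genes whose proteins act mainly elsewhere in the cell, so their counts do not describe the organelle alone. In ADM against control 45 of 51 rose and 2 fell, against 28.3% and 33.3% of all genes, with a median difference of 0.67. In ADM+DHT against ADM 0 rose and 33 fell with limma, against 17.2% and 16.3%, with a median of -0.37. At an unadjusted p under 0.05, 4 were higher there. Acaa1b, Ephx2, Pxmp2 and Agmo passed the filter in the first pair only through ADM, and of the other 47 genes 41 rose. Acaa1b passed it only through ADM in the second pair too, where 32 of the other 50 fell. In DHT against control 4 of 48 rose, Agmo having passed the filter only through DHT, and 6 fell, against 12.7% and 14.1% of all genes. In the interaction 1 of 51 was higher and 23 lower, against 12.5% and 12.9%.
Among peroxins and division factors, 7 of 11 rose in ADM and 1 fell, against 28.3% and 33.3% of all genes. In ADM+DHT against ADM 4 of the 11 fell, against 16.3%. Tmem135, a membrane protein of peroxisomes, had differences of 1.75 ± 0.121 and -0.95 ± 0.070 in these 2 pairs. Acbd5, a tether to the endoplasmic reticulum, had 0.56 ± 0.069 and -0.49 ± 0.069. The fission factor Fis1 fell by a difference of -0.25 ± 0.057 in ADM+DHT, and Trim37, a ligase that ubiquitinates peroxins in human cells, fell in ADM, with -0.59 ± 0.065.
Of the fatty acid enzymes all 15 tested rose in ADM, against 28.3% of all genes, and 10 fell in ADM+DHT against ADM, against 16.3%. The carnitine acetyltransferase gene Crat had 2.09 ± 0.089 and -1.18 ± 0.098, and the acyl-CoA dehydrogenase gene Acad11 1.20 ± 0.085 and -0.92 ± 0.072. The acyl-CoA synthetase gene Acsl1, whose protein is mostly on other membranes, had 4.89 ± 0.225 and -2.19 ± 0.237, and Hsd17b4, the bifunctional enzyme of branched and very long chains, had 1.15 ± 0.041 and -0.64 ± 0.028.
Of the matrix and membrane proteins 18 of 20 rose and 1 fell in ADM, against 28.3% and 33.3% of all genes. In ADM+DHT against ADM 16 of the 20 fell, against 16.3%. The protease gene Lonp2, which degrades matrix proteins, had 1.42 ± 0.047 and -0.65 ± 0.041, the membrane protein gene Pxmp4 2.53 ± 0.049 and -0.74 ± 0.048, Hsdl2 1.54 ± 0.052 and -0.91 ± 0.058, and the superoxide dismutase gene Sod1 0.83 ± 0.049 and -0.46 ± 0.031. The widest difference of this list was in the epoxide hydrolase gene Ephx2, with 5.35 ± 0.080 and -3.93 ± 0.094, where the first depends on the added 1 because its control libraries were listed at or near 0.
All 5 tested ether lipid genes, Agmo only through ADM, rose in ADM, against 28.3% of all genes. In ADM+DHT against ADM 3 fell, against 16.3%. Among these, Chpt1, a cholinephosphotransferase, had 2.65 ± 0.085 and -1.34 ± 0.057 in the 2 pairs. Tmem86a, a lysoplasmalogenase, had 0.42 ± 0.079 and -0.70 ± 0.097, and Cept1, a choline and ethanolamine phosphotransferase, 0.39 ± 0.098 and -0.32 ± 0.068. Agmo, an ether lipid cleaving enzyme, and Tmem189, the desaturase that makes plasmalogens, did not pass in ADM+DHT against ADM, with 0.28 ± 0.10 and -0.33 ± 0.137.

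**Figure D4:**
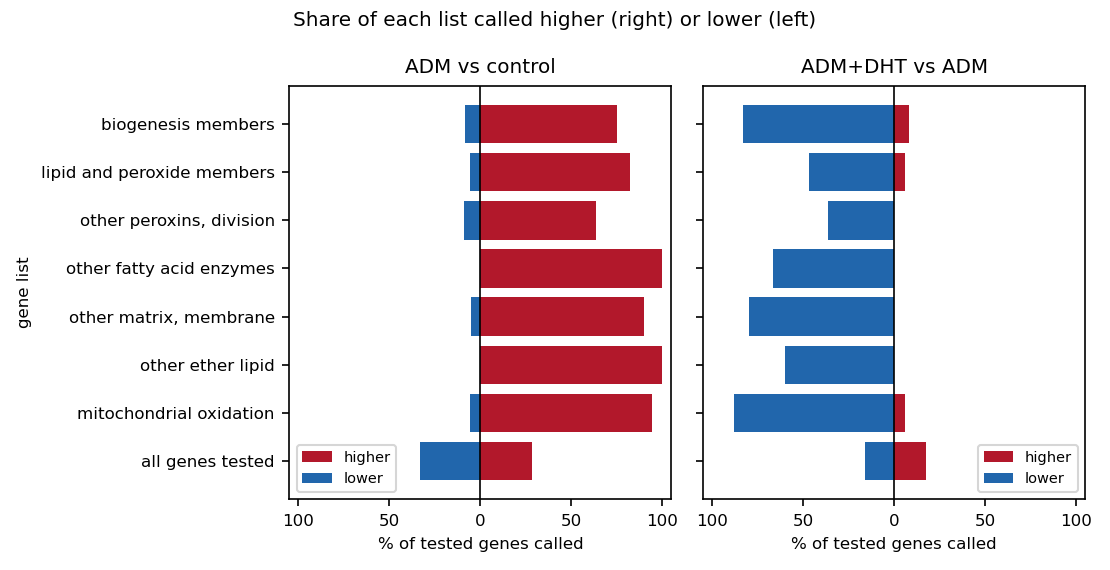
Share of tested genes called higher or lower (limma, adjusted p under 0.05) in the biogenesis and lipid members, the other peroxisomal and ether lipid lists, mitochondrial fatty acid oxidation and all genes, for ADM against control and ADM+DHT against ADM. Bars run right for higher and left for lower. In ADM against control 9 of 12 biogenesis and 14 of 17 lipid members rose against 28.3% of all genes, and in ADM+DHT against ADM 10 and 8 fell against 16.3%.

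Mitochondria oxidise the chains that peroxisomes shorten, and that list moved in the same directions with larger differences. Of 17 tested genes of mitochondrial fatty acid oxidation, 16 rose and 1 fell in ADM, against 28.3% and 33.3% of all genes. The median difference was 1.53. In ADM+DHT against ADM 15 fell and 1 rose, against 16.3% and 17.2%, with a median of -0.82. The interaction was lower for 14 of 17, against 12.9% of all genes. The difference between the medians of the 2 organelles' lists was not tested. The isomerase gene Eci1 had 1.94 ± 0.054 in ADM and -0.73 ± 0.042 in ADM+DHT against ADM, and the dehydrogenase genes Acadl 1.99 ± 0.058 and -1.34 ± 0.046, Acadm 3.09 ± 0.044 and -0.82 ± 0.028, and Etfdh 1.73 ± 0.064 and -1.13 ± 0.063.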

How the data were processed

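Poly(A) RNA was sequenced in paired ends from libraries of a KAPA kit that marks strand, per the labels' protocols. Per the submitters' processing notes, FastQC, cutadapt, HISAT2 and StringTie were used with the GRCm38 build. Per the file headers, the 4 tables deposited by the authors each compare 2 groups and give FPKM per library. Their deposited group columns were found to equal mean log2(FPKM + 1). The deposited fold (a ratio), log2 fold change, p-value and q-value columns of the authors were not used. A library that is in several tables has equal values in them (largest difference 0), and the tables were joined by gene identifier. In every table a single line was empty on receipt (4 in all). An ADM+DHT title spelled unlike its fellows was read as replicate 2.

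Whole reads could not be recovered (at most 33.3% of 18 to 37 low genes gave whole ratios within 0.01), so no counting intervals are given and precision rests on 3 replicates. log2(FPKM + 1) was tested with limma 3.58.1 in R 4.3.3 (data.table, version 1.17.8), moderated with an intensity trend, two-sided, with Benjamini-Hochberg adjustment over all genes that averaged 1 FPKM or more in a compared group. Pairs were fitted on their 6 libraries and the interaction, the DHT difference in ADM less that in regular medium, on all 12. The fit was also run on simulated data with far fewer changed genes, which does not show how reliable the calls are here. Differences understate the fold of genes near 0. "Rose" and "fell" mean an adjusted p under 0.05. Errors are SD of means and SE of differences. Figures and counts used Python 3.11.15, pandas 2.3.3 and matplotlib 3.10.9.

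Members and lists were chosen with earlier results of these data known. All members are named. Library values are given for members that passed with a log2 difference of at least 1 between media or 0.58 with DHT, or that passed the interaction. From other lists, genes with the smallest adjusted p were named, and a few are not reported here. Alternatives were pseudocounts of 0.1 and 0.5, other filters and scalings, no trend, all 12 libraries in each fit, a replicate block and leaving out each library. Protein sequences were not analysed here.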

Additional observations from a re-analysis of the deposited data

Results flagged for a closer look

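For 18 of 29 members the difference with DHT was not the same in the 2 media, by limma's test of the interaction at an adjusted p under 0.05. Of these, 17 were lower and 1 was higher in adipogenic medium, against 12.9% and 12.5% of all 11152 genes. Values are the log2 difference with DHT in adipogenic medium minus that in regular medium. Among peroxins the value was -0.37 for Pex5, -0.57 for Pex13, -0.49 for Pex14, -0.37 for Pex10, -0.62 for Pex6, -1.22 for Pex16, -0.82 for Pex19 and -0.56 for Pex11a, and 0.34 for Pex2, the single positive value. Among the transporters it was -0.86 for Abcd2 and -0.37 for Abcd3. Among the oxidation enzymes it was -0.48 for Acaa1a, -0.91 for Scp2, -0.83 for Ech1, -0.66 for Phyh and -0.35 for Hacl1. For the ether lipid enzyme Gnpat it was -0.65 and for catalase (Cat) -0.77. Abcd2 passed the filter of 1 FPKM only through ADM, so a negative value was favoured in advance and is no result of its own. The calls of Hacl1 and Abcd2 were lost under settings given with their values above.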

How the results depend on the processing

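Of the member calls, 22 of 23 rises and 1 of 2 falls in ADM against control, 1 of 2 rises and 14 of 18 falls in ADM+DHT against ADM, 2 of 3 rises and 0 of 1 falls in DHT against control, 13 of 19 rises and 1 of 2 falls in ADM+DHT against DHT, and 16 of 18 interactions were kept in every alternative that gave a value for them. With a mean of at least 5 FPKM, 8 to 10 members per comparison had no value. The number of members that fell in ADM against control was 1 with rescaling to genes that are not mitochondrially encoded and with a replicate block, and the number that rose in ADM+DHT against ADM was 1 with the replicate block. In DHT against control 5 rose and 2 fell with all 12 libraries in the fit. In ADM+DHT against DHT 1 fell with a mean of at least 5 FPKM, with all 12 libraries or with the replicate block. With each library left out in turn, members that rose and fell numbered 22 to 23 and 1 in ADM against control, 1 and 15 to 17 in ADM+DHT against ADM, 2 to 4 and 0 to 1 in DHT against control, 15 to 18 and 1 to 2 in ADM+DHT against DHT, and 1 and 16 to 18 in the interaction. Differences not called in the report were past the threshold in some alternatives for Pex7 in ADM against control, Crot and Dhrs4 in ADM+DHT against ADM, Pex2, Acox3, Ech1 and Hacl1 in DHT against control, Pex26, Pex3, Phyh and Far1 in ADM+DHT against DHT, and Pex3, Crot and Dhrs4 in the interaction. The cause of these changes was not tested, but a left-out library also leaves fewer samples. Replicate numbers were not used as pairs in the main fits. Same-numbered libraries' deviations from group means correlated between -0.134 and 0.141 across 10735 genes, which cannot show whether those libraries shared a batch. With the replicate block, 16 members fell in ADM+DHT against ADM. Signs reversed only in differences that passed no test. With rescaling to genes that are not mitochondrially encoded, DHT against control gave 0.0080 for Pex14, 0.0169 for Crot and 0.0052 for Dhrs4, and the Pecr interaction was -0.0050. The latter was -0.0119 and -0.0008 with pseudocounts of 0.1 and 0.5, and quantile normalization gave 0.0080 for Pex7 in ADM+DHT against DHT. Over left-out libraries, differences spanned 0 as follows: in ADM against control Pex26 -0.1151 to 0.2184 and Agps -0.2207 to 0.137, in ADM+DHT against ADM Far1 -0.1737 to 0.2516, and in ADM+DHT against DHT Abcd3 -0.0445 to 0.0282. In DHT against control they were Pex13 -0.0076 to 0.058, Pex14 -0.0767 to 0.0227, Pex26 -0.0737 to 0.1278, Acot8 -0.0363 to 0.1617, Crot -0.0574 to 0.0743, Agps -0.0876 to 0.27 and Dhrs4 -0.0656 to 0.0142, and the Pecr interaction was -0.076 to 0.1191. The depth of each library is unknown, so whether small differences among low genes such as Abcd2, Pex10 and Pex26 are within counting error cannot be told.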

Other observations

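Of 8 regulators tested, 5 rose and 1 fell in ADM, against 28.3% and 33.3% of all genes, and 6 fell in ADM+DHT against ADM, against 16.3%, while Rxra and Rxrb did not pass. In DHT against control 2 rose and 4 fell, against 12.7% and 14.1%. Ppargc1b, a coactivator of oxidative metabolism, averaged 1.80 ± 0.315 FPKM in control and 1.04 ± 0.107 in DHT, against 5.14 ± 0.389 in ADM and 1.12 ± 0.0667 in ADM+DHT (SD, n = 3). Its difference was 1.14 ± 0.103 in ADM against control and -1.53 ± 0.076 in ADM+DHT against ADM. Prdm16, a regulator of brown fat identity, had 1.14 ± 0.092 and -0.41 ± 0.085 in these pairs, and 0.53 ± 0.116 in DHT against control. In both pairs against control it passed the filter only through the other group, so its difference there could only be positive. Pparg had 1.65 ± 0.073 and -0.67 ± 0.058, and Ppard had 0.29 ± 0.063 and -0.22 ± 0.063. Rxra, the partner of the PPAR receptors, rose by 1.08 ± 0.075 in ADM and had 0.01 ± 0.059 in ADM+DHT against ADM, which did not pass (adjusted p = 0.948). Its relative Rxrb passed in neither pair, with -0.05 ± 0.076 and 0.01 ± 0.072. The glucocorticoid receptor gene Nr3c1 fell in both, with -0.58 ± 0.046 and -0.27 ± 0.046.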
